A study of Caenorhabditis elegans with 24 samples.

Results

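The aagr genes of Caenorhabditis elegans, aagr-1 to aagr-4, encode the acid alpha-glucosidase related proteins. They were chosen by name, with earlier results of these data known. Each has a probe set that names aagr-1, aagr-2, aagr-3 or aagr-4 and no other gene. They are 4 of the 17118 genes that the array reads in this way. Where a gene had more than 1 such probe set, the set with the highest mean log2 intensity over the 24 arrays was used. The study asked how fasting changes gene expression in whole adult worms and what knockdown of TOR or Rheb does to that response. All worms were wild type N2 kept at 20 °C on plates for RNA interference (RNAi), which lowers a chosen transcript by means of double-stranded RNA, and collected at day 4 of adulthood. The groups were Cel-TOR RNAi fasted for 48 h (3 arrays), Cel-TOR RNAi fed (3), Cel-Rheb RNAi fasted for 48 h (4), Cel-Rheb RNAi fed (4), control RNAi fasted for 48 h (5) and control RNAi fed (5). The labels call the arrays of a group biological replicates from independent experiments. RNAi leaves the gene itself in place, and an RNA sample of whole worms mixes all tissues, so that fewer cells of a type and less RNA per cell cannot be told apart.

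Acid alpha-glucosidase cuts glucose from glycogen inside the lysosome, the acidic compartment in which cells digest their own material and what they take up. In humans the enzyme is called GAA, and its loss lets glycogen build up in lysosomes and causes Pompe disease. The aagr proteins belong to the same family of glycoside hydrolases as GAA, a family that also holds the catalytic subunit of glucosidase II, which trims glucose from sugar chains of new proteins in the endoplasmic reticulum. TOR is a kinase that promotes growth when nutrients are plentiful, in part from the lysosome surface, and Rheb is the small GTPase that activates it.

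Each aagr gene was measurable on every array. The values are GCRMA intensities, a background-corrected summary of the probes of a set, and array medians ran from 46.9 to 58. The gene aagr-1 (D2096.3, chromosome IV) was read by 183207_at, aagr-2 (R05F9.12, chromosome II) by 193100_s_at, aagr-3 (F40F9.6, chromosome V) by 189764_s_at and aagr-4 (F52D1.1, chromosome X) by 190570_at. Locus names and chromosomes are those of RefSeq for WBcel235. A name ending in _s_at marks a set whose probes can read more than 1 transcript. The mean log2 intensity over the 24 arrays was 9.25 for aagr-1, 11.39 for aagr-2, 10.84 for aagr-3 and 5.78 for aagr-4. The value of aagr-4 is near the middle of all probe sets, at the 50.5th percentile. For aagr-3 a further set, 173733_s_at, had a mean of 9.79 and was left out of the main values by the rule. Levels are not compared between genes, because probe sets differ in how brightly they report a transcript.

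Before the aagr genes were compared, the knocked-down genes were read as a check of the labels. The TOR gene let-363 was at a log2 difference of -1.45 and -1.93 in its 2 probe sets in fed TOR RNAi worms against fed control worms (limma, adjusted p = 1.2e-07 and 2.4e-07). The Rheb gene rheb-1 was at -2.55 in 188936_at in fed Rheb RNAi worms (adjusted p = 8.6e-07) but at -0.3 in 175488_at (adjusted p = 0.35). The log2 ratio of 3′ to middle probe sets of worm control transcripts is a sign of RNA quality. It ranged from 0.71 to 1.52 over the arrays and was highest on Rheb RNAi fed array 3. Fed arrays ran from 0.71 to 1.04 on control, 1.01 to 1.09 on TOR and 0.81 to 1.52 on Rheb RNAi. Fasted arrays ran from 0.9 to 1.02, 0.85 to 1.33 and 0.97 to 1.29 in the same order.

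Fasting lowered aagr-1 and aagr-2 on all 3 kinds of plate. In the main fit, which leaves out the array numbers, aagr-3 and aagr-4 passed the test on none. A gene was called where limma's p, moderated over genes and adjusted by Benjamini-Hochberg over 12277 tested genes, was under 0.05. Of the 4 aagr genes, 2 were called lower and 0 higher on each plate. The aagr genes were chosen with earlier results of these data known. Their counts therefore describe the family and do not test it against all genes. Of all tested genes, 5.16% were called lower on TOR RNAi, 8.67% on Rheb RNAi and 7.91% on control RNAi. The shares called in either direction were 6.24% on TOR RNAi, 11.9% on Rheb RNAi and 18.9% on control RNAi. Called higher were 1.08% on TOR RNAi, 3.23% on Rheb RNAi and 1351 of 12277 genes on control RNAi. All these shares come from the main fit, though fed and fasted arrays of the same number on a plate were paired. With array numbers as a block, those of TOR RNAi apart, 1769 genes were called on TOR, 3822 on Rheb and 4697 on control RNAi. The main fit called 766, 1461 and 2322. That block also called aagr-4 higher on control RNAi, at 0.55 (limma, adjusted p = 0.0067).

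The gene aagr-1, described as a worm counterpart of human GAA, had the larger of the 2 falls on each plate. On TOR RNAi its intensity was 148, 298 and 343 in fasted worms, against 1977, 2046 and 2199 in fed worms. On Rheb RNAi it was 85.7, 103, 128 and 140 in fasted worms, against 466, 305, 989 and 625 in fed worms. On control RNAi it was 591, 494, 495, 435 and 390 in fasted worms, against 2534, 2367, 2989, 2552 and 3180 in fed worms. No fasted array reached the lowest fed array of its own plate. Groups without overlap were also seen for 23.5% of all tested genes on TOR RNAi, 14.6% on Rheb RNAi and 12.5% on control RNAi.

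On TOR RNAi the fasted level of aagr-1 was 11.9% of the fed level, a log2 difference of -3.07 ± 0.32 (SE; limma, adjusted p = 2.5e-07). On Rheb RNAi it was 20.6% of the fed level, at -2.28 ± 0.27 (limma, adjusted p = 1.7e-06). On control RNAi it was 17.6% of the fed level, at -2.51 ± 0.24 (limma, adjusted p = 9.0e-08). Few genes fell further: 96 of the tested genes had a lower difference on TOR RNAi, 197 on Rheb RNAi and 108 on control RNAi. The difference between arrays of the same number was below 0 in every pair, from -3.74 to -2.68 on TOR RNAi, from -2.95 to -1.57 on Rheb RNAi and from -3.03 to -2.1 on control RNAi. For this gene alone, an exact two-sided permutation test over arrays gave p = 0.1 on TOR RNAi, 0.0286 on Rheb RNAi and 0.00794 on control RNAi. Each is the smallest p that these numbers of arrays allow, so 3 arrays against 3 cannot pass that test. The Rheb RNAi fed array with the highest 3′ to middle ratio was also the highest of its group for aagr-1, at 989, and without it the fall on Rheb RNAi was -1.99.

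**Figure D1:**
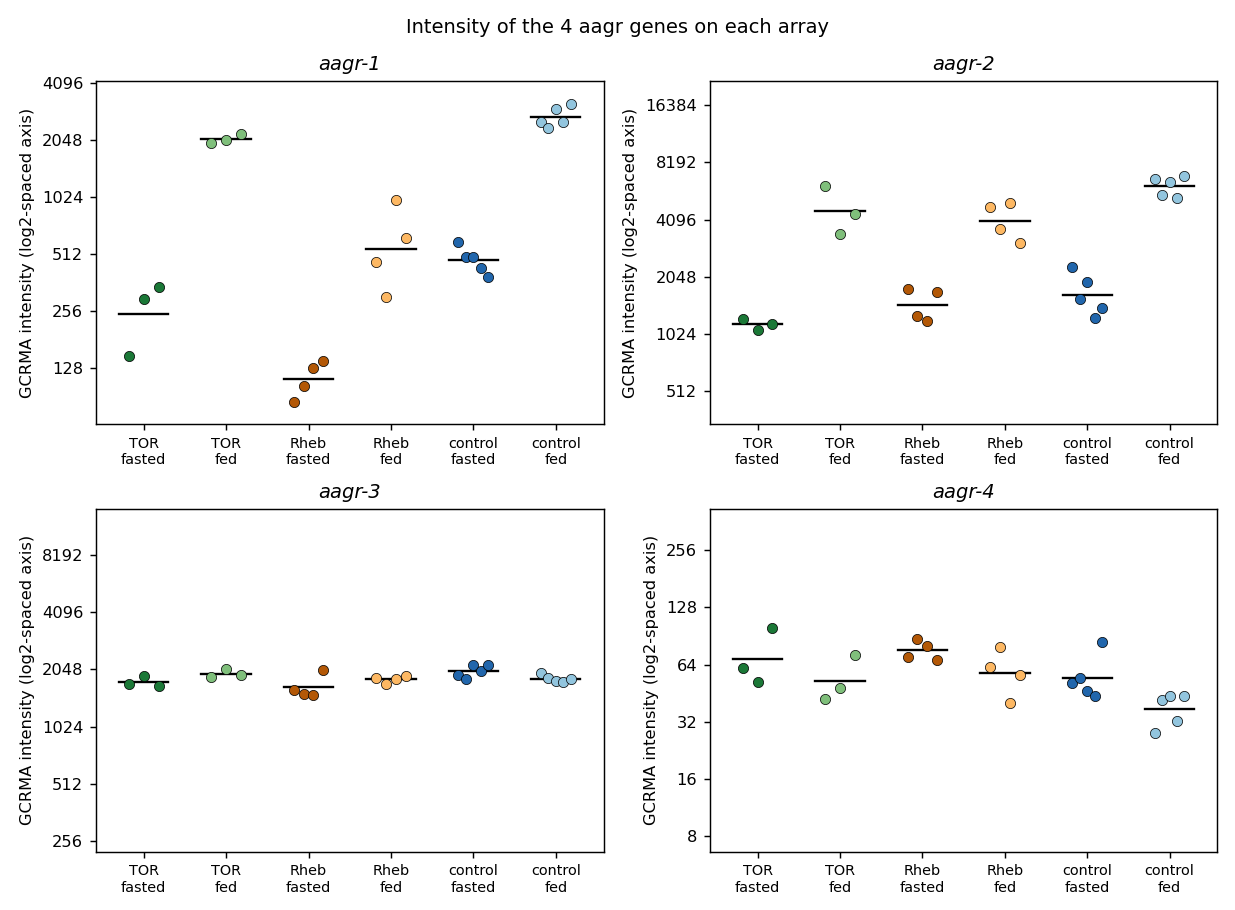
GCRMA intensity of each aagr gene on a log2 axis, with 1 point per array and a line at the group's mean of log2 values, for TOR, Rheb and control RNAi worms, fasted left of fed. All 4 panels span the same number of doublings. The fasted points of aagr-1 and aagr-2 lie below all fed points of the same plate, while those of aagr-3 stay within a narrow band in all 6 groups.

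The gene aagr-2, a further member of the family, fell by a similar pattern and less steeply. On TOR RNAi its intensity was 1220, 1083 and 1164 in fasted worms, against 6168, 3447 and 4373 in fed worms. On Rheb RNAi it was 1757, 1267, 1199 and 1705 in fasted worms, against 4754, 3643, 4975 and 3083 in fed worms. On control RNAi it was 2312, 1559, 1931, 1235 and 1400 in fasted worms, against 6736, 5498, 6439, 5306 and 6992 in fed worms. On no plate did a fasted array reach a fed array. The fasted level was 25.5% of the fed level on TOR RNAi, a log2 difference of -1.97 ± 0.24 (limma, adjusted p = 2.8e-06). It was 36.2% on Rheb RNAi, at -1.47 ± 0.21 (limma, adjusted p = 1.5e-05), and 26.7% on control RNAi, at -1.90 ± 0.18 (limma, adjusted p = 7.8e-08). More genes had a lower difference than for aagr-1: 238 on TOR RNAi, 435 on Rheb RNAi and 203 on control RNAi.

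Some markers of the intestine, from a list of 9 genes, were called lower with fasting too. On TOR RNAi 6 of the 9 were called lower with a list median of -1.79, on Rheb RNAi 6 with -1.27, and on control RNAi 3 with -0.39, and 0 were called higher on any plate. The medians of all tested genes were 0.08, 0.09 and 0.04 on TOR, Rheb and control RNAi. The summed intensity of the 9 markers was 1700 to 2483 in fasted and 5342 to 6223 in fed TOR RNAi worms, 1614 to 2062 in fasted and 3087 to 4785 in fed Rheb RNAi worms, and 2487 to 4478 in fasted and 4584 to 7720 in fed control worms. None was at 0, and all 9 were above a log2 value of 4 on every array. Of single markers, act-5, the actin of intestinal microvilli, was at -2.1 on TOR RNAi, -1.36 on Rheb RNAi and -1.96 on control RNAi (limma, adjusted p = 0.00019, 0.0028 and 1e-05). The gut esterase ges-1 was at -1.08, -1.65 and -0.22 on the same plates and was not called on control RNAi (limma, adjusted p = 0.016 and 2.3e-05 on TOR and Rheb RNAi). Some markers of other tissues were called with fasting too. The marker counts were not tested against the shares of all tested genes. Of 12 muscle markers, 6 were called lower with fasting on Rheb RNAi and 0 higher, with a median of -0.7, 1 was lower on TOR RNAi, and 1 was lower and 1 higher on control RNAi. Their summed intensity was 6092 to 12043 in fasted and 9982 to 18469 in fed TOR RNAi worms, 11234 to 14815 in fasted and 20229 to 31392 in fed Rheb RNAi worms, and 7288 to 12955 in fasted and 8503 to 14669 in fed control worms. Of 5 epidermis markers, 0 were lower on TOR RNAi, 1 on Rheb RNAi and 2 on control RNAi. On control RNAi 2 of 10 neuron and 1 of 10 zygotic embryo markers were higher, and 1 of 10 oocyte and eggshell markers lower. On Rheb RNAi 1 of 10 zygotic embryo markers was higher. The part of these markers in the falls of aagr-1 and aagr-2 was not tested.

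Fasting left aagr-3 within about the same range. In TOR RNAi worms its intensity was 1709, 1901 and 1666 fasted, against 1874, 2062 and 1915 fed. In Rheb RNAi worms it was 1602, 1518, 1499 and 2034 fasted, against 1847, 1721, 1830 and 1886 fed. In control worms it was 1917, 1833, 2149, 1997 and 2147 fasted, against 1950, 1840, 1780, 1763 and 1823 fed. Fasted and fed arrays overlapped on every plate. The log2 difference was -0.15 on TOR RNAi with a 95% interval of -0.41 to 0.10, -0.14 on Rheb RNAi with -0.36 to 0.08, and 0.13 on control RNAi with -0.07 to 0.33 (limma, adjusted p = 0.66, 0.43 and 0.38). These intervals leave out a change as large as those of aagr-1 and aagr-2. The further probe set of aagr-3 read -0.01, -0.02 and 0.27 in the same order (limma, adjusted p = 0.99, 0.96 and 0.26).

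The gene aagr-4, the dimmest of the 4 probe sets, was higher in fasted worms by amounts that did not pass the test. In TOR RNAi worms its intensity was 61.5, 51.7 and 100 fasted, against 41.9, 47.9 and 72.1 fed. In Rheb RNAi worms it was 70.5, 87, 80.1 and 68 fasted, against 62.2, 79.4, 40.2 and 56.3 fed. In control worms it was 51.3, 54.4, 46.3, 43.9 and 84.4 fasted, against 28, 41.8, 43.6, 32.4 and 43.9 fed. The groups overlapped on TOR and Rheb RNAi plates, and on control plates the lowest fasted and the highest fed array were nearly level. The log2 difference was 0.38 ± 0.28 on TOR RNAi, 0.40 ± 0.24 on Rheb RNAi and 0.55 ± 0.22 on control RNAi (limma, adjusted p = 0.61, 0.32 and 0.083). Without 1 array it ranged from 0.1 to 0.61 on TOR RNAi, 0.22 to 0.55 on Rheb RNAi and 0.39 to 0.62 on control RNAi. With the array number as a block over all arrays, the control difference stayed at 0.55 and was called (limma, adjusted p = 0.038). The data bear out the numbers as a pairing on each plate, but not between TOR RNAi and other arrays. With TOR RNAi numbers as their own block the control difference was also 0.55 and called (limma, adjusted p = 0.0067).

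**Figure D2:**
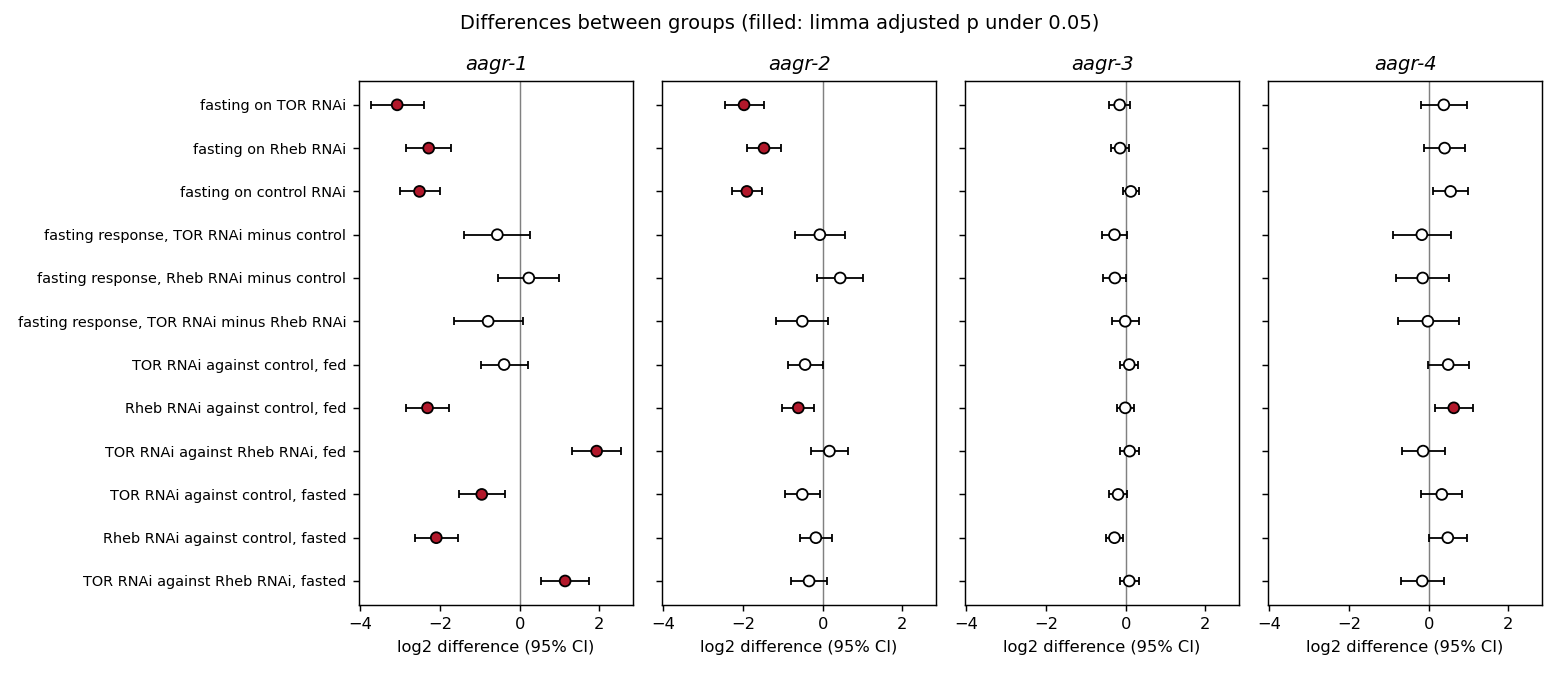
Log2 differences of the 4 aagr genes with 95% intervals in each comparison of groups, with rows for TOR, Rheb and control RNAi plates and filled red points where limma's adjusted p is under 0.05. The fasting differences of aagr-1 lie at -3.07, -2.28 and -2.51 and those of aagr-2 at -1.97, -1.47 and -1.90, and the intervals of aagr-3 for fasting hold 0 on all 3 plates.

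The size of the fasting response was then compared between plates, as the difference of the 2 differences. None of the 4 aagr genes was called in any of the 3 comparisons, where 2.44% of all tested genes were called for TOR minus control RNAi, 4.89% for Rheb minus control RNAi and 0.318% for TOR minus Rheb RNAi. For aagr-1 the response on TOR RNAi minus that on control RNAi was -0.56, with a 95% interval of -1.39 to 0.27 (limma, adjusted p = 0.72). Without 1 array it ranged from -0.8 to -0.19, the smaller size being that without TOR RNAi fasted array 1. For Rheb minus control RNAi it was 0.23, with an interval of -0.53 to 0.99 (limma, adjusted p = 0.83). For aagr-2 the same differences were -0.07, with an interval of -0.69 to 0.55, and 0.44, with an interval of -0.13 to 1.01 (limma, adjusted p = 0.98 and 0.46). For TOR minus Rheb RNAi aagr-1 was at -0.79, with an interval of -1.65 to 0.08. There aagr-2 was at -0.51, with an interval of -1.16 to 0.14. The widths of these intervals leave room for responses that differ by more than 1 on the log2 scale. For aagr-1 this holds in TOR minus control and TOR minus Rheb RNAi. For aagr-2 it holds in Rheb minus control and TOR minus Rheb RNAi.

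In fed worms the level of aagr-1 differed between the 2 knockdowns. Rheb RNAi brought aagr-1 to 20.1% of the level on control RNAi, a log2 difference of -2.31 ± 0.26 (limma, adjusted p = 8.0e-07), and the highest fed Rheb RNAi array, at 989, was below the lowest fed control array, at 2367. Groups were without overlap for 22.1% of all tested genes in that comparison. Of the tested genes, 83 had a lower difference there. On TOR RNAi the fed level was 76.5% of control, at -0.39 ± 0.28 with an interval of -0.97 to 0.20 (limma, adjusted p = 0.30). All 3 TOR RNAi arrays were below all 5 control arrays, and 4544 of the 12277 tested genes had groups without overlap in that comparison. Fed worms on TOR RNAi had 380% of the aagr-1 level of fed worms on Rheb RNAi, a log2 difference of 1.93 ± 0.29 (limma, adjusted p = 2.2e-04). Array numbers do not pair TOR RNAi arrays with Rheb or control RNAi arrays, fed or fasted. Between these plates an effect of knockdown and one of experiment cannot be told apart. In fed worms 18 probe sets of added controls had a median difference of -0.27 for TOR against control RNAi, from -0.6 to 0.13. Their median was 0.08 for Rheb against control RNAi and -0.37 for TOR against Rheb RNAi. The part of such shifts in the aagr differences was not tested.

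The other aagr genes in fed worms were closer to 0 than aagr-1 on Rheb RNAi. The comparisons of TOR and of Rheb RNAi use the same 5 fed control arrays. The gene aagr-2 fell to 65.6% of the control level on Rheb RNAi, at -0.61 ± 0.19 (limma, adjusted p = 0.019). That call was lost without Rheb RNAi fed array 4, at -0.48 (limma, adjusted p = 0.085). On TOR RNAi aagr-2 was at -0.44, with an interval of -0.88 to 0.00 (limma, adjusted p = 0.11). It was at -0.67 without TOR RNAi fed array 1, the highest of its group at 6168 (limma, adjusted p = 0.034). The gene aagr-3 was at -0.01 ± 0.10 on Rheb RNAi and 0.09 ± 0.11 on TOR RNAi (limma, adjusted p = 0.96 and 0.55). The gene aagr-4 rose by 0.63 ± 0.23 on Rheb RNAi (limma, adjusted p = 0.037), with groups that overlap and a call that was lost on leaving out any 1 of 5 arrays (control fed 1 or 4, Rheb RNAi fed 1, 2 or 4). On TOR RNAi it was at 0.49 ± 0.25 (limma, adjusted p = 0.13). In total 2 aagr genes were lower and 1 higher on Rheb RNAi, where 13.9% of all tested genes were called lower and 19.2% higher. On TOR RNAi 0 of 4 were called, where 13.4% of all tested genes were called lower and 19.9% higher, and between the knockdowns 1 was called higher on TOR RNAi, where 2.80% were.

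In fasted worms aagr-1 was again lowest on Rheb RNAi. It was at 23.6% of the fasted control level, at -2.09 ± 0.26 (limma, adjusted p = 2.8e-06), and 1 of the 4 aagr genes was called lower where 9.04% of all tested genes were. On TOR RNAi it was at 51.9% of the fasted control level, at -0.95 ± 0.28 (limma, adjusted p = 0.018), with 1 of 4 called lower where 10.2% of all were. Without TOR RNAi fasted array 1, at 148, that difference was -0.58 and not called (limma, adjusted p = 0.16). Fasted worms on TOR RNAi were above those on Rheb RNAi by 1.14 ± 0.29 (limma, adjusted p = 0.028), with 1 of 4 called higher where 2.71% of all were. That call was lost on leaving out Rheb RNAi fasted array 1 or 2 or TOR RNAi fasted array 2 or 3, with values from 0.9 to 1.1. In fasted worms aagr-2 was at -0.51 on TOR RNAi and -0.17 on Rheb RNAi against control (limma, adjusted p = 0.081 and 0.60). The gene aagr-3 was at -0.28 ± 0.10 on Rheb RNAi, not called at an adjusted p of 0.054 in limma, and was called without control fasted array 2 or Rheb RNAi fasted array 4, at -0.31 and -0.38 (limma, adjusted p = 0.046 and 0.0082). The gene aagr-4 was at 0.48 ± 0.23 on Rheb RNAi and 0.33 on TOR RNAi (limma, adjusted p = 0.15 and 0.35). With the array number as a block, which pairs fasted Rheb RNAi and control arrays, aagr-3 at -0.27 and aagr-4 at 0.59 were both called in fasted Rheb RNAi worms (limma, adjusted p = 0.037 for each), so that 3 of the 4 aagr genes were called there. With TOR RNAi numbers as their own block these 2 values were the same (limma, adjusted p = 0.024 for aagr-3 and 0.0064 for aagr-4).

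Markers of other tissues differed with knockdown beside these values. In fed Rheb RNAi worms 10 of 12 muscle markers and 7 of 10 neuron markers were called higher, and 6 of 10 germline markers lower. Of 10 oocyte and eggshell markers, 7 were lower and 1 higher there. In fed TOR RNAi worms 2 of 12 muscle and 7 of 10 neuron markers were higher, and 5 of 10 germline and 8 of 10 oocyte and eggshell markers lower. Of all tested genes, 19.2% were called higher and 13.9% lower in fed Rheb RNAi worms, and 19.9% and 13.4% in fed TOR RNAi worms. Of the 9 intestine markers, 4 were higher and 2 lower in fed Rheb RNAi worms, with a list median of -0.26, and 4 were higher and 1 lower in fed TOR RNAi worms, with a median of 0.62. In fasted TOR RNAi worms 10 of 10 oocyte and eggshell and 0 of 10 germline markers were lower. Of the 9 intestine markers, 3 were lower and 1 higher there. Called higher were 3 of 10 zygotic embryo, 3 of 10 neuron and 0 of 12 muscle markers, beside 14.9% of all tested genes. Called lower were 10.2% of all tested genes. In fasted Rheb RNAi worms 3 of 10 oocyte and eggshell, 3 of 9 intestine and 1 of 10 germline markers were lower, beside 9.04% of all tested genes. Called higher were 5 of 10 zygotic embryo, 2 of 10 neuron, 2 of 12 muscle and 0 of 9 intestine markers, beside 10.5% of all tested genes. The marker counts were not tested against these shares. The intestine marker ges-1 was at -2.57 in fasted TOR RNAi and -3.67 in fasted Rheb RNAi worms (limma, adjusted p = 1.2e-07 and 4e-11). Another, nhx-2, named after its values were seen, was at 1.39 in fasted TOR RNAi worms (limma, adjusted p = 7e-04). In fasted Rheb RNAi worms nhx-2 was at 0.36 and not called. The part of all these markers in the aagr differences was not tested.

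Ordered by level, aagr-1 was highest in fed control worms at a mean log2 of 11.4 ± 0.18 (SD, n = 5), then in fed TOR RNAi worms at 11.02 ± 0.08 (n = 3) and fed Rheb RNAi worms at 9.09 ± 0.71 (n = 4). Fasted control worms followed at 8.9 ± 0.23 (n = 5), fasted TOR RNAi worms at 7.95 ± 0.65 (n = 3) and fasted Rheb RNAi worms at 6.81 ± 0.32 (n = 4). Among these neighbours fed Rheb RNAi and fasted control worms overlapped, so that worms with food on Rheb RNAi were at about the aagr-1 level of control worms without food. For aagr-2 the same 3 fed groups came first, at 12.59 ± 0.18, 12.15 ± 0.42 and 11.98 ± 0.33 on control, TOR and Rheb RNAi. Its fasted groups were at 10.68 ± 0.36 on control RNAi, 10.51 ± 0.29 on Rheb RNAi and 10.17 ± 0.09 on TOR RNAi. For aagr-2 neighbours in the order overlapped except fed Rheb RNAi and fasted control worms. For aagr-3, whose group means lay between 10.69 and 10.97, and for aagr-4, between 5.22 and 6.25, all neighbours in the order overlapped.

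The aagr-1 and aagr-2 readings were also set against each other within each array. The log2 difference aagr-1 minus aagr-2 was -2.22 ± 0.71 in fasted and -1.13 ± 0.46 in fed TOR RNAi worms (SD, n = 3 each). It was -3.7 ± 0.47 in fasted and -2.89 ± 0.67 in fed Rheb RNAi worms (n = 4 each), and -1.79 ± 0.2 in fasted and -1.19 ± 0.14 in fed control worms (n = 5 each). The size of this difference has no meaning across probe sets, but its shifts describe unequal change. The fasted means were lower than the fed means on each plate, with arrays that did not overlap on TOR and control RNAi and overlapped on Rheb RNAi, and these shifts were not tested. Fed Rheb RNAi arrays, at -3.58 to -2.3, lay wholly below fed control arrays, at -1.41 to -1.06. Over all 24 arrays the 2 genes correlated at Pearson's r = 0.84, and at 0.21 once group means were removed. The arrays share their groups, so the correlation describes the group differences already given.

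**Figure D3:**
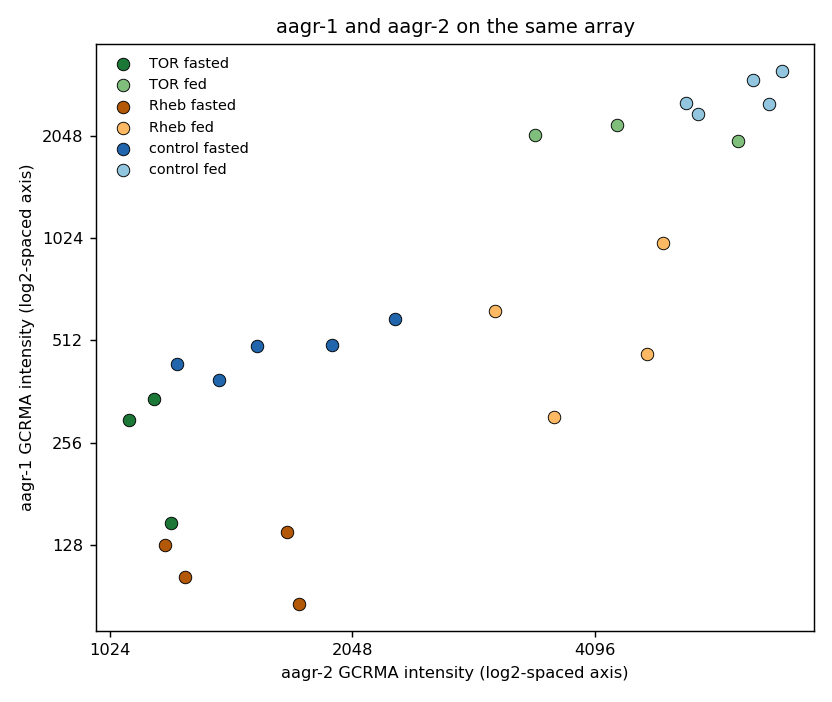
GCRMA intensity of aagr-1 against that of aagr-2 on log2 axes, with 1 point per array and colours for the 6 groups. All fed arrays lie above all fasted arrays in aagr-2. In aagr-1 they separate within each plate, but fed Rheb RNAi arrays overlap fasted control arrays. The Rheb RNAi arrays lie lower in aagr-1 than control arrays of the same feeding state. In aagr-2 the fasted Rheb RNAi and control arrays overlap. Fed Rheb RNAi arrays, at 3083 to 4975 in aagr-2, lie below fed control arrays, at 5306 to 6992.

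Among all 12277 tested genes, the 5 with a pattern most like that of aagr-1 over the 24 arrays were R10H10.3, F28H7.3, F54E2.1, Y49E10.18 and sysm-1, with Pearson's r from 0.969 to 0.98. Their fasting differences were all negative on every plate, and sysm-1 was at -7.91 on TOR RNAi, -3.9 on Rheb RNAi and -6.05 on control RNAi. For aagr-2 the 5 were lec-11, bcf-1, C49C3.9, act-5 and hrg-11.4, with r from 0.947 to 0.968. The galectin gene lec-11 was at -2.87, -2.51 and -2.68 on TOR, Rheb and control RNAi, and act-5 is also in the intestine marker list. For aagr-3 the 5 were pfn-2, a profilin, C50B8.5, lec-12, thn-1 and Y39B6A.5, with a lower likeness of 0.777 to 0.844. For aagr-4 they were AH9.3, F47E1.1, hlh-4, arrd-4 and D1081.6, at 0.875 to 0.886. Arrays of the same group share their treatment, so these values describe likeness over 6 groups more than over 24 independent points.

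**Figure D4:**
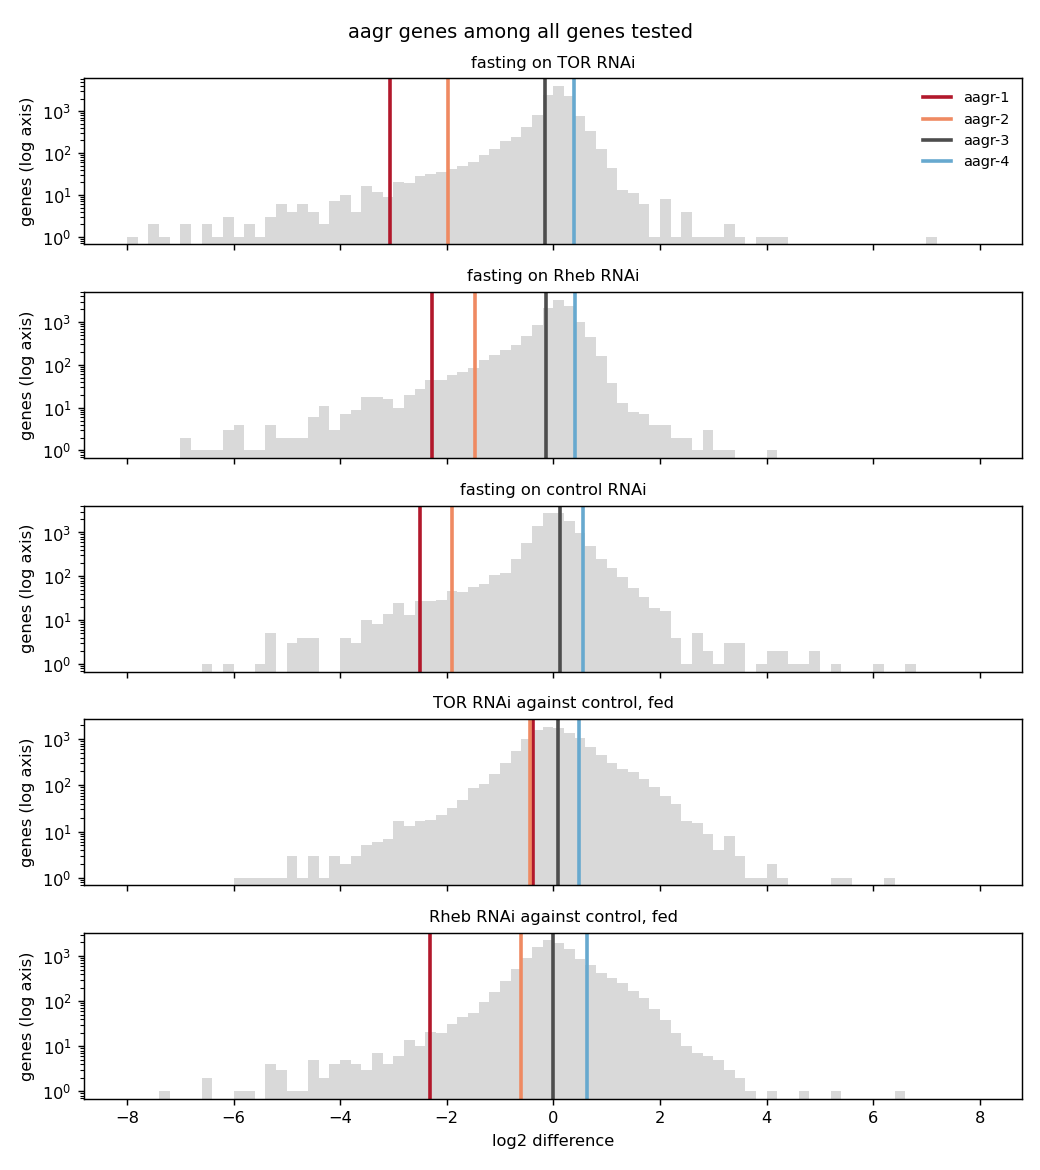
Histograms of the log2 differences of all tested genes in 5 comparisons, on a log count axis, with the 4 aagr genes marked. In the 3 fasting comparisons aagr-1 and aagr-2 lie in the lower tail, where 96, 197 and 108 genes were lower than aagr-1 on TOR, Rheb and control RNAi, aagr-3 lies nearer the middle, and aagr-4 lies in the upper part, above 87.6%, 85.4% and 88.8% of tested genes.

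Other genes of glycogen metabolism were read beside the aagr genes. Of 11 tested genes of glycogen synthesis and breakdown, 0 were called lower on any plate and 1 was called higher on Rheb and on control RNAi, counts that do not set the list apart from the shares of all tested genes given above. That gene was gyg-1, a glycogenin that primes glycogen chains, at 1.16 ± 0.2 on Rheb RNAi and 0.77 ± 0.17 on control RNAi (limma, adjusted p = 0.00016 and 0.0031), and at 0.67 on TOR RNAi (adjusted p = 0.092). The list medians were 0.12, 0.02 and -0.17 on TOR, Rheb and control RNAi. The glycogen synthase gene gsy-1 was at 0.22, 0.14 and -0.04, and the glycogen phosphorylase gene pygl-1, which releases glucose from glycogen in the cytosol, at 0.04, 0.03 and -0.17, and neither was called. These 2 genes were named after their values were seen. In fed worms pygl-1 was lower with knockdown, at -1.35 on TOR RNAi and -0.96 on Rheb RNAi (limma, adjusted p = 0.00041 and 0.0034), within a list of which 3 of 11 were lower and 1 higher under each knockdown. Of all tested genes, 13.4% were called lower and 19.9% higher on TOR RNAi, and 13.9% and 19.2% on Rheb RNAi.

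Genes of trehalose, the sugar of worm body fluid that is also made from glucose, went in both directions. Of 8 tested, fasting called 1 lower and 0 higher on TOR RNAi, 2 lower and 1 higher on Rheb RNAi, and 0 lower and 2 higher on control RNAi. The trehalose synthase gene tps-1 rose by 1.29 on control RNAi (limma, adjusted p = 2.7e-05) and was at 0.26 on TOR RNAi and -0.01 on Rheb RNAi. Its response on Rheb RNAi minus that on control RNAi was -1.3 (limma, adjusted p = 0.0069). Against control, fed worms were at 1.3 on Rheb RNAi and 0.72 on TOR RNAi for tps-1 (limma, adjusted p = 4.6e-05 and 0.014). The call on TOR RNAi was lost without TOR RNAi fed array 3. Fasted worms were at 0 and -0.3 for tps-1 and not called. Of the trehalases, which split trehalose into glucose, tre-2 fell by 0.65 and tre-5 rose by 1.37 on Rheb RNAi (limma, adjusted p = 0.0011 and 0.0013). Against control, tre-2 was at 1.17 in fed and 0.67 in fasted Rheb RNAi worms (limma, adjusted p = 3.4e-07 and 0.00033). There tre-5 was at -0.96 in fed worms (limma, adjusted p = 0.0076) and at 0.42, not called, in fasted worms. The call of tre-3 on TOR RNAi, at -0.97 (limma, adjusted p = 0.048), was lost on leaving out any 1 of 18 arrays.

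Other lysosomal glycosidases, which cut sugars from other substrates in the same compartment, were read next. Of 10 listed, 6 were tested, and on each plate 0 were called lower and 1 higher, with list medians of -0.03 on TOR RNAi, -0.26 on Rheb RNAi and 0.26 on control RNAi. With 5.16% to 8.67% of all tested genes called lower, 0 of 6 does not set this list apart. The 1 was hex-1, a beta-hexosaminidase, at 0.83 on TOR RNAi, 0.74 on Rheb RNAi and 1.62 on control RNAi (limma, adjusted p = 0.034, 0.017 and 6.9e-07). Its calls on TOR and Rheb RNAi were lost when any 1 of 4 and any 1 of 2 arrays was left out. In fed worms 3 of the 6 were called higher on TOR RNAi, where 19.9% of all tested genes were, and 5 of 6 on Rheb RNAi, where 19.2% were. In both comparisons 0 were called lower, and the list medians were 0.92 and 1.33. On TOR RNAi hex-1 was at -0.17 and chhy-1 at 0.05. The alpha-galactosidase related gene gana-1 was at 1.79 on TOR RNAi and 1.96 on Rheb RNAi (limma, adjusted p = 0.0012 and 0.00021), and bgal-1 at 1.41 and 1.78 (limma, adjusted p = 5e-05 and 8.4e-07). The genes gana-1, bgal-1 and chhy-1 were named after their values were seen. In the same fed Rheb RNAi worms aagr-1 was at -2.31 while 5 of 6 other lysosomal glycosidases were called higher.

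**Figure D5:**
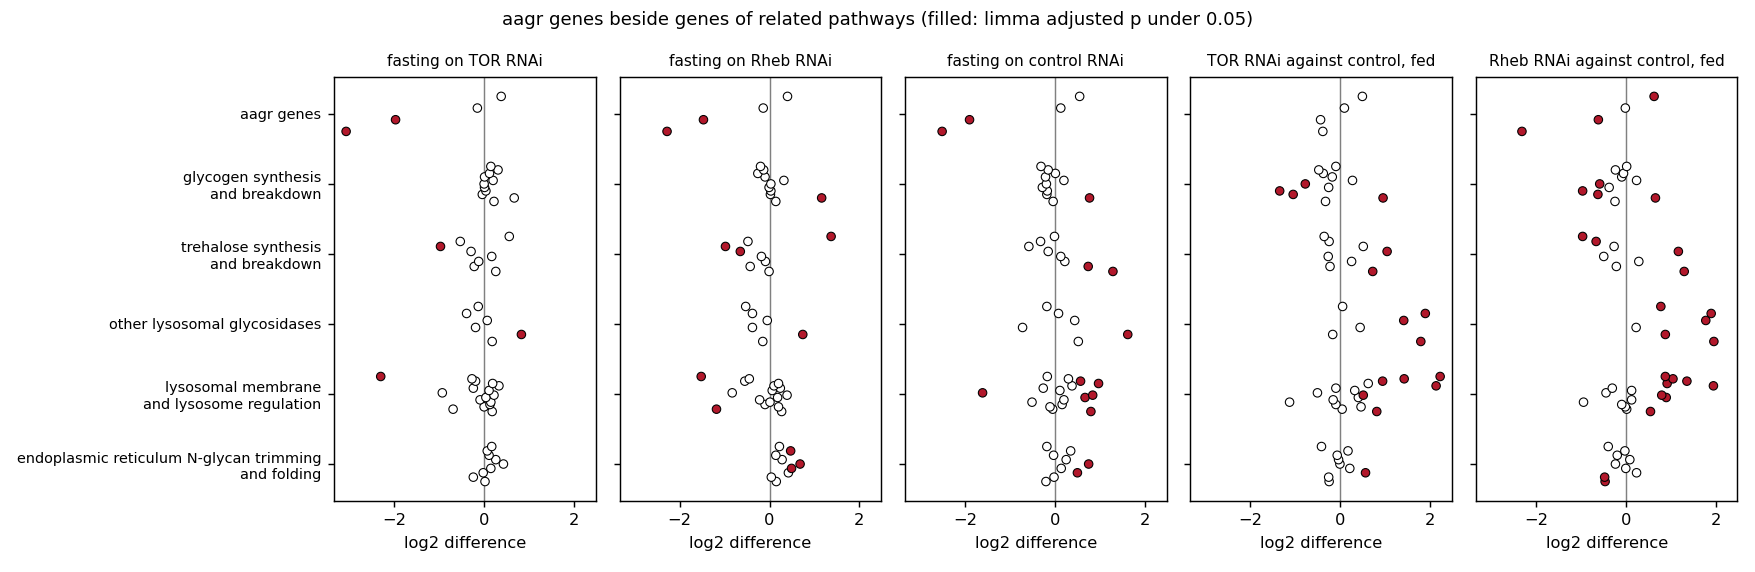
Log2 differences of the aagr genes and of each tested gene of the related lists in 5 comparisons, which are fasting on TOR, Rheb and control RNAi and fed TOR and fed Rheb RNAi worms against fed control worms. In the columns for knockdown the points of the other lysosomal glycosidases lie mostly above 0, with medians of 0.92 and 1.33, while aagr-1 lies at -0.39 and -2.31.

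Of 16 genes of the lysosomal membrane and of lysosome regulation, fasting called 1 lower and 0 higher on TOR RNAi, 2 lower and 0 higher on Rheb RNAi, and 1 lower and 5 higher on control RNAi. Set against all tested genes, with 1.08% and 3.23% higher on TOR and Rheb RNAi and 1351 of 12277 on control RNAi, the list is described here by its counts alone. On control RNAi lmp-1, a lysosomal membrane protein, rose by 0.80 and ncr-2, related to the human cholesterol transporter NPC1, by 0.84 (limma, adjusted p = 2.9e-06 and 3.4e-05). The gene spin-3, related to fly spinster, fell by 2.3 on TOR RNAi and 1.52 on Rheb RNAi (limma, adjusted p = 5.3e-06 and 0.00013) and was at -0.17 on control RNAi. Against control, spin-3 was at 2.22 on TOR RNAi and 0.88 on Rheb RNAi in fed worms (limma, adjusted p = 1.9e-06 and 0.0069). In fasted worms spin-3 was at 0.09 and -0.47 and not called. Under knockdown in fed worms 6 of the 16 were higher on TOR RNAi and 8 on Rheb RNAi, with 0 lower. Of all tested genes, 19.9% and 19.2% were called higher in these 2 comparisons. Of 9 tested genes of N-glycan trimming and folding in the endoplasmic reticulum, where glucosidase II acts, fasting called 0 lower on any plate, and 0, 3 and 2 higher on TOR, Rheb and control RNAi. The calreticulin gene crt-1 was at 0.75 on control RNAi and 0.68 on Rheb RNAi (limma, adjusted p = 0.0025 and 0.017), and the call on Rheb RNAi was lost on leaving out any 1 of 4 arrays.

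The genes next to aagr-1 and aagr-2 on their chromosomes, looked up after the aagr values were seen, were not called with fasting. D2096.6, beside aagr-1, was at -0.45 on TOR RNAi, -0.08 on Rheb RNAi and -0.04 on control RNAi, and its neighbour on the other side, D2096.12, was not tested. The genes snpc-1.4 and msp-31 beside aagr-2 were at 0.1 and -0.96 on TOR RNAi, 0.29 and -0.03 on Rheb RNAi, and -0.35 and -0.5 on control RNAi. Beside aagr-3, which was not called, slcr-46.3 was called at -0.9 on TOR RNAi (limma, adjusted p = 0.019) and drap-1 was at -0.16.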

How the data were processed

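Whole-worm RNA of 24 samples, 5 µg each, was labelled and hybridised 1 sample per Affymetrix C. elegans Genome Array. The deposited values are GCRMA intensities on a linear scale, per the submitters' processing notes and the values themselves, and images were analysed with GeneSpring GX 7.3.1 per the labels' design text. No version of GCRMA is given in the sources used here. GCRMA makes the distributions of arrays alike, though they were not equal here, with array medians from 46.9 to 58. A shift of the whole transcriptome cannot be read from such values, and the number of arrays limits the precision.

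The log2 of each intensity was analysed. Among 22625 probe sets there are 77 controls of the array, and 20766 sets name a single gene, 887 more than 1 gene and 895 no gene. Each of 17118 genes was read by its probe set of highest mean, and tests ran on the 12277 genes that passed a log2 value of 4 on 3 arrays or more. A limma 3.58.1 model (R 4.3.3) with a mean for each of the 6 groups gave 12 comparisons from the 24 arrays, adjusted by Benjamini-Hochberg within each and called at 0.05. The fit was tested on simulated data. Percentages of a level are ratios of geometric means, and single genes were also given exact two-sided permutation tests.

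The aagr genes and the gene lists were chosen with earlier results of these data known. Beside the aagr genes, the named genes are up to 4 members of each list called under fasting with the smallest p, the 5 genes of highest correlation with each aagr gene, and the targets, and exceptions are stated. After removal of group means, same-numbered arrays correlated at 0.51 to 0.6 for fasted and fed control worms, 0.44 to 0.73 for Rheb RNAi and 0.5 to 0.57 for TOR RNAi, and at 0.45 to 0.66 (fed) and 0.23 to 0.52 (fasted) between Rheb and control RNAi, so numbers pair these arrays. Between TOR RNAi and the others they ran from -0.35 to 0.25 and do not. A fit with the number as a block was therefore an alternative, with variance models, scalings, filters, probe set choices and arrays left out. Sequences were not used here.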

Additional observations from a re-analysis of the deposited data

How the results depend on the processing

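The fasting calls of aagr-1 and aagr-2 held on all 3 plates in every alternative in which the gene was read and in each of the 24 fits without 1 array, with a highest adjusted p of 0.0017 in limma over the alternatives. Without 1 array aagr-1 ranged from -3.3 to -2.7 on TOR RNAi, -2.56 to -1.99 on Rheb RNAi and -2.58 to -2.43 on control RNAi, and aagr-2 from -2.17 to -1.75, -1.6 to -1.37 and -2.03 to -1.8. Leaving out the probe sets ending in _s_at or _x_at removes aagr-2 and aagr-3, so that 1 aagr gene was called on each plate.

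Other aagr values moved near 0 or near the threshold, and the cause was not tested. With arrays centred on their medians, aagr-2 was at 0.06 for TOR minus control RNAi, aagr-3 at -0.09 in fed TOR RNAi worms, aagr-4 at 0.46 in fed Rheb RNAi worms (not called), aagr-3 at -0.3 in fasted Rheb RNAi worms (called) and aagr-2 at -0.63 in fed TOR RNAi worms (called). Further quantile normalization gave 0.47 for aagr-4 in fed Rheb RNAi worms (not called), 0.03 for aagr-3 in the same worms, and 0 for aagr-4 in Rheb minus control RNAi and aagr-3 in TOR minus Rheb RNAi. The mean of the probe sets gave 0.05 for aagr-3 in fed Rheb RNAi worms. A trended or robust variance, no filter, a filter at a log2 value of 6 or a floor at 4 left aagr-3 in fasted Rheb RNAi worms at -0.28 and called it. A fit of the compared groups alone left aagr-1 in fasted TOR against fasted Rheb RNAi worms at 1.14 and did not call it, and leaving out the 2 arrays with the highest 3′ to middle ratios gave 1.01, not called. Without these 2 arrays aagr-4 was at 0.03 for TOR minus control RNAi, 0.36 for TOR minus Rheb RNAi and 0.04 in fasted TOR against Rheb RNAi worms. The number of aagr genes called in fasted Rheb RNAi worms was 2 with the trended or robust variance, centring, either filter or the floor. It was 1 in fed TOR RNAi worms with centring, and 0 in fasted TOR against Rheb RNAi worms with the compared groups alone or without the 2 arrays.

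With the replicate block, aagr-4 was called under fasting on control RNAi at 0.55 and in fasted Rheb RNAi worms at 0.59, aagr-3 was called in fasted Rheb RNAi worms at -0.27 and was at 0 in fed ones, and 3 aagr genes were called in fasted Rheb RNAi worms. The same held with TOR RNAi numbers as their own block. Where the numbers do not pair, the block called aagr-2 at -0.52 and aagr-4 at 0.56 in fed TOR RNAi worms, 2 genes in all, and aagr-2 at -0.58 in fasted TOR RNAi worms, again 2 in all. It changed no other aagr call. With TOR RNAi numbers as their own block, which the correlations bear out, 1769 of all genes were called for fasting on TOR RNAi, 3822 on Rheb RNAi and 4697 on control RNAi, 1118, 2148 and 157 for TOR minus control, Rheb minus control and TOR minus Rheb RNAi, and 6487 in fed and 5065 in fasted Rheb RNAi worms, against 4065 and 2403 without it. The block over all numbers called 1298 for fasting on TOR RNAi, 2960 on Rheb RNAi and 3883 on control RNAi, against 766, 1461 and 2322 without it. For TOR minus control, Rheb minus control and TOR minus Rheb RNAi it called 719, 1417 and 106, against 300, 600 and 39. In fed worms it called 6655 for TOR RNAi and 2933 for TOR against Rheb RNAi, against 4087 and 693, and in fasted worms 5951, 4289 and 3281 for TOR, Rheb and TOR against Rheb RNAi, against 3089, 2403 and 519. Counts over 1.5 times apart were also 24 without _s_at sets for TOR minus Rheb RNAi, 307 (fed) and 305 (fasted) with TOR and Rheb RNAi groups alone, and 185 for TOR minus control RNAi, 1748 for fasted TOR RNAi and 220 for fasted TOR against Rheb RNAi without the 2 arrays.

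Centring moved the median of all genes to -0.15 in fed TOR and in fed Rheb RNAi worms, against 0.04 and 0.02, and to 0.13 and 0.17 for TOR and Rheb minus control RNAi, against 0 and 0.02. Higher and lower calls were then 661 and 1023 for fasting on Rheb RNAi, against 397 and 1064, and 923 and 1227 on control RNAi, against 1351 and 971. They were 1628 and 2923 in fed TOR RNAi worms, against 2437 and 1650, and 1651 and 2788 in fed Rheb RNAi worms, against 2360 and 1705. For TOR minus control RNAi they were 126 and 166, against 86 and 214, and for Rheb minus control RNAi 240 and 365, against 131 and 469.

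Without 1 array, aagr-4 ranged under fasting from 0.1 to 0.61 on TOR RNAi, 0.22 to 0.55 on Rheb RNAi and 0.39 to 0.62 on control RNAi, and in TOR RNAi worms against control from 0.26 to 0.65 fed and 0.05 to 0.53 fasted. The count of aagr genes called ranged from 0 to 1 in fed TOR RNAi worms, 1 to 3 in fed Rheb RNAi worms, 0 to 2 in fasted TOR RNAi worms, 1 to 2 in fasted Rheb RNAi worms and 0 to 1 in fasted TOR against Rheb RNAi worms. In fed worms, aagr-2 ranged from -0.67 to -0.25 on TOR RNAi, -0.71 to -0.48 on Rheb RNAi and -0.06 to 0.36 for TOR against Rheb RNAi, aagr-3 from -0.03 to 0.02 on Rheb RNAi, and aagr-4 from 0.48 to 0.81 on Rheb RNAi and -0.37 to 0.02 for TOR against Rheb RNAi. In fasted worms, aagr-1 ranged from -1.18 to -0.58 on TOR RNAi and 0.9 to 1.51 for TOR against Rheb RNAi, aagr-2 from -0.61 to -0.39 on TOR RNAi, aagr-3 from -0.38 to -0.23 on Rheb RNAi, and aagr-4 from 0.4 to 0.64 on Rheb RNAi and -0.43 to 0.04 for TOR against Rheb RNAi. For the difference in fasting response, aagr-1 ranged from -0.8 to -0.19 for TOR minus control and -1.07 to -0.42 for TOR minus Rheb RNAi. There aagr-2 ranged from -0.7 to -0.28 for TOR minus Rheb RNAi. Further, aagr-1 ranged from -0.05 to 0.51 and aagr-4 from -0.33 to 0.01 for Rheb minus control RNAi, aagr-2 from -0.27 to 0.15 and aagr-4 from -0.44 to 0.06 for TOR minus control RNAi, and aagr-3 from -0.07 to 0.09 and aagr-4 from -0.29 to 0.21 for TOR minus Rheb RNAi.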
